A study of Homo sapiens with 9 samples.

Results

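Aminoacyl-tRNA synthetases are the enzymes that join each amino acid to its tRNA, and 38 of their genes were measured among the 56541 genes of the table. The genes were chosen by symbol alone: a letter followed by ARS and 1, 2 or 3, plus EPRS1, FARSA and FARSB. No measured value enters that rule, but the family was picked with knock-down and RIP results of these libraries known, so counts over its members are descriptions and carry no test. By the same symbols, 20 genes code for the cytosolic enzymes and 17, whose names end in 2, for the mitochondrial ones. The other gene is TARS3, a second cytoplasmic threonyl-tRNA synthetase. GARS1 and KARS1 are known to give both the cytosolic and the mitochondrial enzyme from 1 gene each.

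Human cells keep separate sets of synthetases for the cytosol and for the mitochondria, both encoded in the nucleus. In the cytosol 8 of the genes code for enzymes of the multisynthetase complex, a particle held together by scaffold proteins, while the others work outside it. The transcription factor ATF4, which is translated when the kinases of eIF2 are active, is known to induce many cytosolic synthetase genes together with enzymes of amino acid synthesis. One of those kinases, GCN2 (EIF2AK4), senses uncharged tRNA.

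The cells were MOLM-13, an acute myeloid leukaemia line, and all of them had doxycycline at 200 ng/µL for 4 days, as labelled. The shCONTROL group (3 libraries) carried a control hairpin and the shBCLAF1 group (3 libraries) one that targets BCLAF1, known as a nuclear factor that binds RNA. For the RIP group (RNA immunoprecipitation, 3 libraries) BCLAF1 was pulled down from shCONTROL cells and its RNA sequenced. The labels give 1 batch for all libraries, name no mock precipitation, and leave unsaid whether replicates were separate cultures, so p-values measure the spread between these samples alone.

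Library totals ran from 25819144 to 36635268 estimated counts, and the lowest count of any member was 52 (VARS2 in RIP replicate 3), so every member could be tested in both comparisons. In brackets, log2 change stands for the log2 fold change. Levels below are CPM, a gene's count over the library total on a common scale, scaled by TMM over all 9 libraries. Log2 fold changes, standard errors (SE) and p-values adjusted over all genes come from edgeR's quasi-likelihood test, fitted on the 6 libraries of each comparison. BCLAF1 fell to 35.3% of the control in the shBCLAF1 libraries. All 6 markers of the myeloid line (CD33, FLT3, MPO, MEIS1, HOXA9, PTPRC) were above 3 counts in every library. Their summed level lay between 873 and 911 CPM with the control hairpin, between 735 and 846 CPM with the BCLAF1 hairpin and between 1150 and 1350 CPM for the RIP, and its part in the results was not tested. Of 3 T cell markers 1 (CD3D) was above 3 counts, the B cell markers MS4A1 and PAX5 and the erythroid markers HBB and ALAS2 were at 0 throughout, and 4 epithelial and stromal markers summed to at most 1.5 CPM. In bulk RNA, fewer cells of a type and less RNA per cell cannot be told apart.

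The promoter windows of 7 cytosolic members are shown first, because they hold the letters of a known ATF4 and C/EBP composite element, TGATGNAA, and because all 7 genes were lower after knock-down. RefSeq (GRCh38.p14) gave promoters for 30 of the 38 members, each 250 bases before to 50 after a transcript start, and 9 of them had 2 starts listed. LARS1, VARS1, YARS1, AARS2, VARS2 and TARS3 were among those with no entry. Windows are printed 5′ to 3′ on the strand of the gene, with the match in capitals, and where the capitals read TTGCATCA or TTTCATCA the element lies on the opposite strand.
GARS1, chr7:30594818-30594887, plus strand: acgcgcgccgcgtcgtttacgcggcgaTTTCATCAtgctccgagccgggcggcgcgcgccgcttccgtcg
AARS1, chr16:70289654-70289723, minus strand: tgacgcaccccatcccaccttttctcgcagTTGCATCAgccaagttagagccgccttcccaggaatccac
CARS1, chr11:3057414-3057483, minus strand: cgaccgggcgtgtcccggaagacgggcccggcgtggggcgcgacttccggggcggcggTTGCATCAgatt
IARS1, chr9:92293688-92293757, minus strand: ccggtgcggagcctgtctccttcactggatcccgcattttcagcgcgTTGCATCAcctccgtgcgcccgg
MARS1, chr12:57488008-57488077, plus strand: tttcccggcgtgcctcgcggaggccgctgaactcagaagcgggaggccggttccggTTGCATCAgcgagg
TARS1, chr5:33440905-33440974, plus strand: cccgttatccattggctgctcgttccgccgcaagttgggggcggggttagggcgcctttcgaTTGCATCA
NARS1, chr18:57621813-57621896, minus strand: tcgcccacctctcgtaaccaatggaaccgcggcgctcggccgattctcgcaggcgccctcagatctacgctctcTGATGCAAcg

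The match began at base -187 relative to the transcript start in AARS1, -33 in GARS1, -13 in IARS1, -4 in MARS1 and -2 in CARS1 (the start is 0), and in CARS1 and MARS1 it spans the start. In TARS1 and NARS1 it began after the start, at bases 2 and 14. Distances are from the start of the window that holds the match. TARS1 and GARS1 each have an earlier listed start, at 33440696 and 30594735, and their matches lie after that start too. Of the 16 cytosolic members with a promoter, 7 held the element (searched on both strands), and so did 1 of 14 mitochondrial members, YARS2 at base -197. Among all 27305 genes with promoters in the table, 4.46% held it. All 7 cytosolic matches were among the 11 cytosolic members with a promoter that were lower after knock-down at an adjusted p under 0.05, as were 16.9% of all genes tested. The family was picked with knock-down results known, so this overlap is a description and was not tested. No cytosolic match was among the 3 that did not pass the test (HARS1, KARS1, RARS1) or the 2 that were higher (FARSA, QARS1). WARS1 (-1.18), SARS1 (-0.85), EPRS1 (-0.69) and FARSB (-0.32, each a log2 fold change) were lower without holding the element. So were all 5 mitochondrial members that were lower, WARS2 (-0.95) among them. With only the bases before the start, 3 cytosolic members held it (AARS1, IARS1 and, by its later start, GARS1), against 3.89% of all genes. The GARS1 match lies in the window of that later start, so with the first listed promoter alone 6 held it, against 3.67%.

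In 6 of the 7 the letters were TGATGCAA, a form held by 1.08% of all genes and singled out after the matches were seen. GARS1 had TGATGAAA and YARS2 TGATGGAA. In the list of 12 ATF4 pathway genes, 11 had a promoter in the table and 2 of these, ASNS and CHAC1, held the element. The other 2 motifs searched were the E-box CACGTG, which is its own reverse complement, and the ETS core CCGGAAG on both strands. The E-box was in 1 of 16 cytosolic promoters (IARS1) and 3 of 14 mitochondrial ones (CARS2, EARS2, MARS2), against 8.77% of all genes. The ETS core was in 9 of 16 cytosolic and 7 of 14 mitochondrial promoters, against 12.2% of all genes. HARS1 and HARS2 face away from each other with starts 85 bases apart on chromosome 5, so their windows overlap and share both of their ETS matches. A match describes the letters of a window and is no evidence of binding.

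**Figure D1:**
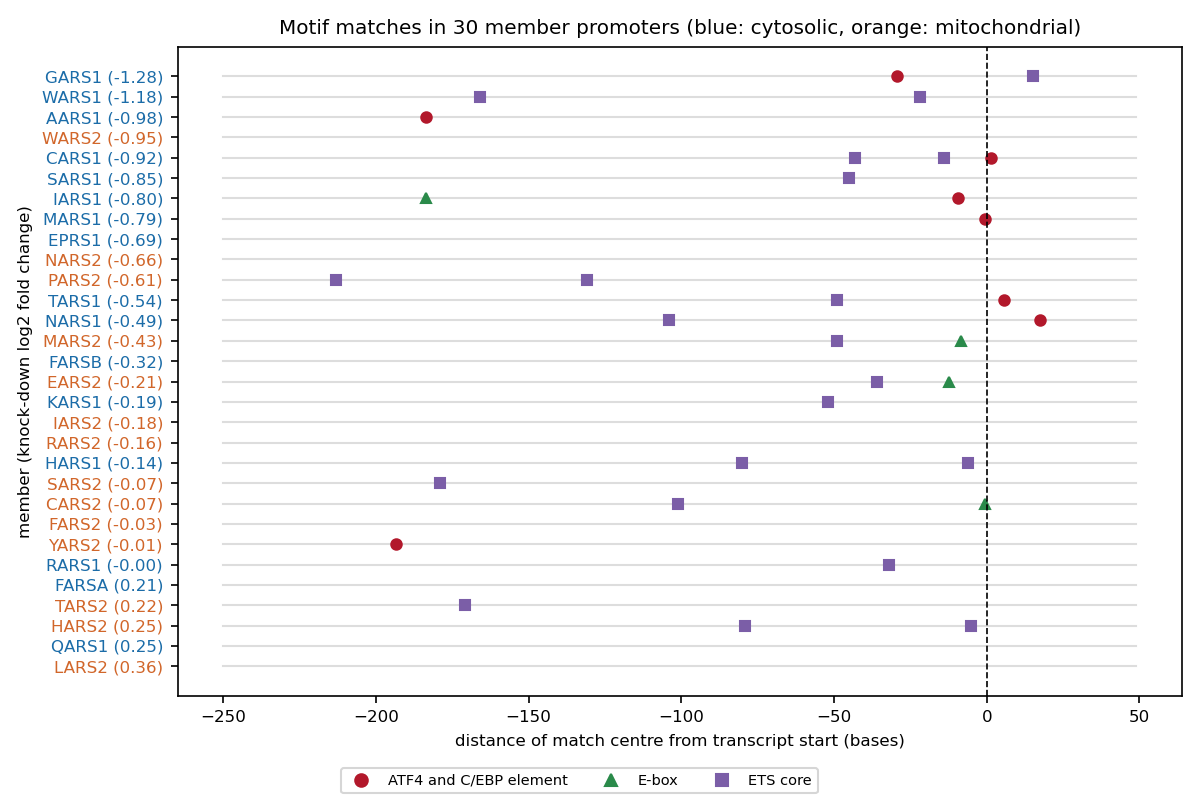
Matches to 3 motifs in the RefSeq promoters of 30 members, by distance in bases of the match centre from the transcript start of the window that holds it; rows are ordered by knock-down log2 fold change, given in brackets. The 7 cytosolic members with the ATF4 and C/EBP element have log2 fold changes of -1.28 to -0.49, and all of these matches but that of AARS1 begin between base -33 and base 14.

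After knock-down of BCLAF1, the genes for cytosolic synthetases were mostly lower and those for mitochondrial ones mostly little changed. Of the 20 cytosolic members 15 fell and 2 rose (adjusted p under 0.05), and the median log2 change was -0.61. Of the 17 mitochondrial members 5 fell and 2 rose, with a median of -0.07. That median was -0.134 without shCONTROL replicate 3, -0.117 without shCONTROL replicate 2 and -0.022 with total counts. Over the 16961 genes tested, 16.9% were lower and 15.5% higher, and the median was 0.017. TARS3 was lower too. The cytosolic members together held 0.548% ± 0.0161 of all counts with the control hairpin and 0.374% ± 0.00512 after knock-down (SD, n = 3 each). The mitochondrial members held 0.0821% ± 0.00483 and 0.0787% ± 0.000430 (SD, n = 3 each).

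**Figure D2:**
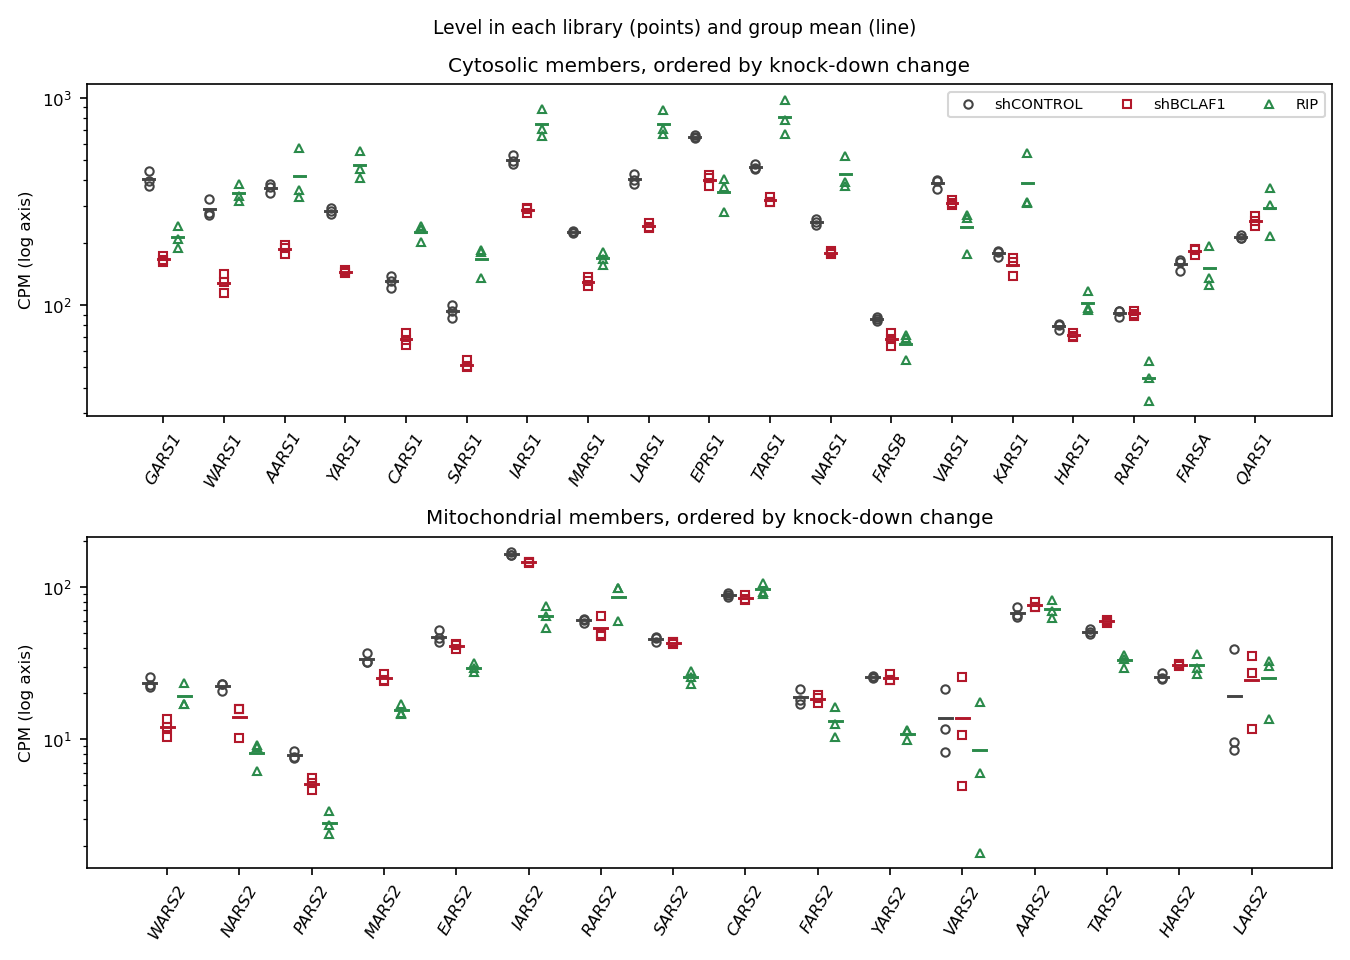
CPM of cytosolic (upper panel) and mitochondrial (lower panel) members in all 9 libraries on a log axis, with points for libraries and lines for group means, ordered by knock-down change. The shBCLAF1 squares lie under the shCONTROL circles without overlap from GARS1 to HARS1 in the upper panel, and VARS2 and LARS2 show the widest spread within groups. KARS1 and HARS1 lie in that run but did not pass the test, and the share of all genes without overlap is not given here.

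GARS1 (ENSG00000106105, chromosome 7), the glycyl-tRNA synthetase of both compartments, fell most among the members. Its CPM was 374, 445 and 395 with the control hairpin and 172, 161 and 166 after knock-down. All shBCLAF1 values lay under all shCONTROL values, at 41.1% of the control (log2 change -1.28 with SE 0.07 and adjusted p 2.06e-04). GARS1-DT, by its name a divergent noncoding transcript of GARS1, stood at 71.8 ± 8.73 CPM and 76.7 ± 4.95 CPM (SD, n = 3 a group), so that its log2 change was 0.09, with an adjusted p of 0.519 by the same edgeR test.

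WARS1 (ENSG00000140105, chromosome 14), which charges tryptophan and is also known as an interferon-induced gene, held 277, 324 and 272 CPM in shCONTROL and 141, 129 and 114 in shBCLAF1. The groups did not overlap (log2 change -1.18 with SE 0.10 and adjusted p 6.07e-04). AARS1 (ENSG00000090861, chromosome 16), which charges alanine, held 348, 385 and 372 CPM in shCONTROL and 195, 177 and 189 in shBCLAF1. Again no shBCLAF1 library reached a shCONTROL library, and the mean was at 50.9% of the control (log2 change -0.98 with SE 0.06 and adjusted p 2.14e-04).

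YARS1 (ENSG00000134684, chromosome 1), for tyrosine, held 276, 285 and 293 CPM in shCONTROL and 148, 142 and 144 in shBCLAF1. Its groups were apart, with the smallest adjusted p of the family (log2 change -0.97 with SE 0.04 and adjusted p 9.73e-05). CARS1 (ENSG00000110619, chromosome 11), for cysteine, held 121, 138 and 130.2 CPM in shCONTROL and 73.4, 67.5 and 64.3 in shBCLAF1 (log2 change -0.92 with SE 0.07 and adjusted p 4.25e-04). SARS1 (ENSG00000031698, chromosome 1), which charges serine and also starts the synthesis of selenocysteine, held 86.9, 99.5 and 93.5 CPM in shCONTROL and 54.1, 50.0 and 50.8 in shBCLAF1 (log2 change -0.85 with SE 0.06 and adjusted p 3.94e-04). In both genes the highest shBCLAF1 library lay under the lowest shCONTROL library. The other members outside the complex that fell were TARS1 (-0.54), NARS1 (-0.49), FARSB (-0.32) and VARS1 (-0.31, each a log2 fold change), which charge threonine, asparagine, phenylalanine (its beta subunit) and valine.

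Within the multisynthetase complex the genes parted. IARS1 (ENSG00000196305, chromosome 9), for isoleucine, held 477, 531 and 494 CPM in shCONTROL and 293, 289.6 and 279 in shBCLAF1 (log2 change -0.80 with SE 0.05 and adjusted p 2.46e-04). MARS1 (ENSG00000166986, chromosome 12), for methionine, held 222, 228 and 224 CPM in shCONTROL and 136, 129.9 and 123 in shBCLAF1 (log2 change -0.79 with SE 0.04 and adjusted p 2.06e-04). Both were lower in every shBCLAF1 library than in any shCONTROL library. The span of MARS1 overlaps those of DDIT3 and ARHGAP9, and DDIT3 fell as well (log2 change -1.84 with SE 0.24 and adjusted p 0.00252). In all, the spans of 6 members overlap another coding gene in RefSeq, among them MARS1, YARS1, CARS2, EARS2 and FARS2, and how reads there were assigned is not given in the sources used here.

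LARS1, for leucine, held 382, 430.5 and 401 CPM in shCONTROL and 236, 238 and 247 in shBCLAF1 (log2 change -0.75 with SE 0.05 and adjusted p 3.45e-04). EPRS1 (ENSG00000136628, chromosome 1), a single protein that charges both glutamate and proline, held 646, 658 and 638 CPM in shCONTROL and 422, 408 and 375 in shBCLAF1 (log2 change -0.69 with SE 0.05 and adjusted p 3.76e-04). The groups of both genes stood apart.

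QARS1, KARS1 and RARS1, also of the complex, were not called as lower. QARS1 (ENSG00000172053, chromosome 3), for glutamine, held 218, 211 and 209.8 CPM in shCONTROL and 268, 253 and 240.2 in shBCLAF1, so each shBCLAF1 library was above all shCONTROL libraries (log2 change 0.25 with SE 0.05 and adjusted p 0.00960). KARS1 (ENSG00000065427, chromosome 16), the lysyl-tRNA synthetase of both compartments, held 182, 169.7 and 181 CPM in shCONTROL and 169.5, 161 and 137 in shBCLAF1. Its groups just failed to overlap, and the difference did not pass (log2 change -0.19 with SE 0.08 and adjusted p 0.139; -0.10 without shBCLAF1 replicate 3). RARS1, for arginine, had a log2 fold change of -0.0017 (SE 0.05), and its groups overlapped. Over the 8 genes of the complex 5 were lower and 1 higher, with a median of -0.51, and over the other 12 cytosolic genes 10 were lower and 1 higher, with a median of -0.69.

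The 2 subunits of the cytosolic phenylalanyl-tRNA synthetase had calls in opposite directions, and the difference between them was not tested. FARSB, the beta subunit, was lower (log2 change -0.32 with SE 0.06 and adjusted p 0.00886) and FARSA, the alpha subunit, was higher (log2 change 0.21 with SE 0.06 and adjusted p 0.0402). The FARSA call was lost when any 1 of the 6 libraries was left out: the adjusted p was 0.0674, 0.0553 and 0.0550 without shCONTROL replicates 1, 2 and 3, and 0.105, 0.0609 and 0.0960 without shBCLAF1 replicates 1, 2 and 3. The count of cytosolic members that rose was then 1, QARS1. HARS1, for histidine, missed the threshold (log2 change -0.14 with SE 0.04 and adjusted p 0.0532) and passed it without shCONTROL replicate 2 (adjusted p 0.0445).

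**Figure D3:**
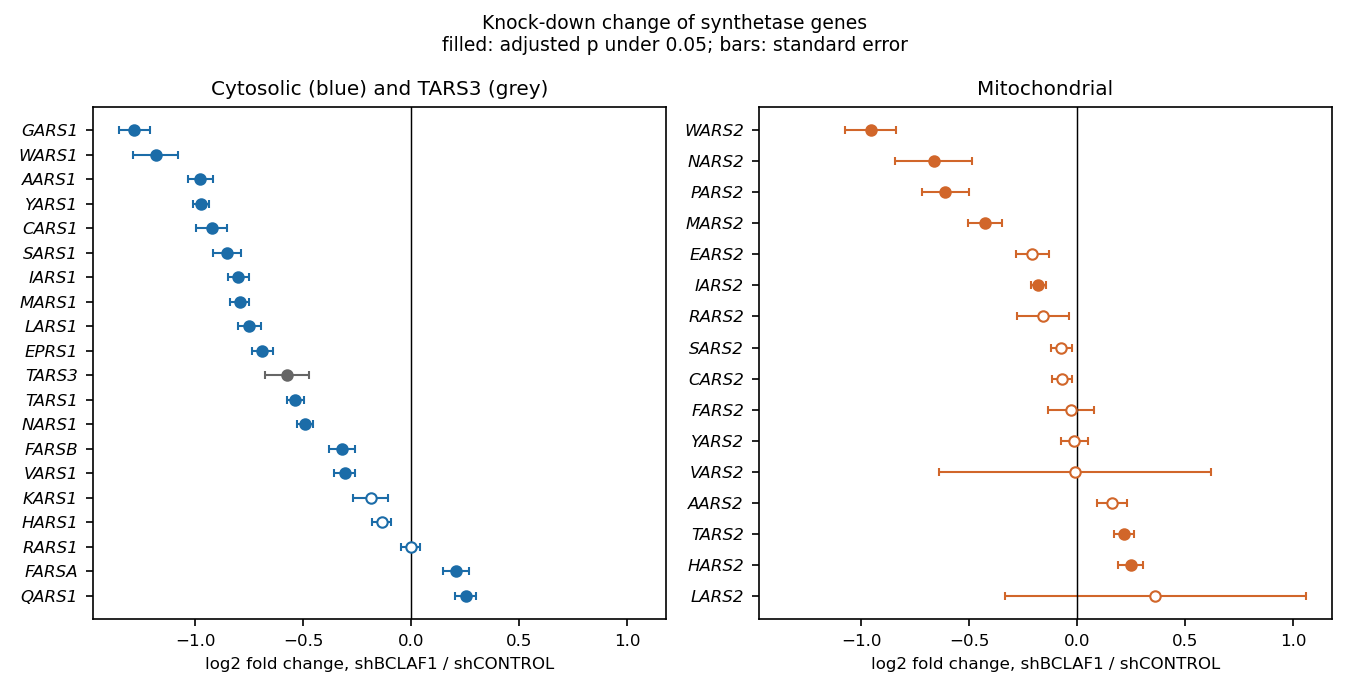
Log2 fold change of shBCLAF1 over shCONTROL for members with the standard error; cytosolic genes and TARS3 are on the left and mitochondrial genes on the right, and filled points have an adjusted p under 0.05. On the left 15 of the 20 points shown are filled and below 0, on the right 5 of 16.

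TARS3 (ENSG00000185418, chromosome 15) held 6.63, 7.34 and 7.25 CPM in shCONTROL and 4.79, 5.03 and 4.37 in shBCLAF1, and fell (log2 change -0.57 with SE 0.10 and adjusted p 0.00792). Its fold change was close to that of TARS1 (-0.54), whose sequence is related, and how reads that match both were assigned is not given in the sources used here.

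Of the mitochondrial members WARS2 (ENSG00000116874, chromosome 1), for tryptophan, fell most. It held 25.5, 22.1 and 22.5 CPM in shCONTROL and 12.1, 13.6 and 10.4 in shBCLAF1, with no overlap (log2 change -0.95 with SE 0.12 and adjusted p 0.00200). Its antisense neighbour WARS2-AS1 overlaps it and was lower as well, at 31.4 ± 0.878 and 26.0 ± 2.20 CPM (SD, n = 3 each; log2 change -0.27 with SE 0.08 and adjusted p 0.0383). That call was lost without shCONTROL replicate 1, 2 or 3 or shBCLAF1 replicate 1 or 2 (adjusted p 0.0916 to 0.144). The libraries were stranded, but whether counting used the strand is not given in the sources used here, so reads of the pair may not be fully apart.

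NARS2 (ENSG00000137513, chromosome 11), for asparagine, held 23.1, 20.8 and 22.9 CPM in shCONTROL and 10.3, 15.9 and 15.9 in shBCLAF1 (log2 change -0.66 with SE 0.18 and adjusted p 0.0340). The groups were apart, but shBCLAF1 replicate 1 was lower than the other two. It did not pass once shCONTROL replicate 1, 2 or 3 was dropped (adjusted p 0.111, 0.0774 and 0.106) and without shBCLAF1 replicate 2 (0.0520). PARS2 (ENSG00000162396, chromosome 1), for proline, held 8.38, 7.54 and 7.62 CPM in shCONTROL and 5.55, 4.66 and 5.16 in shBCLAF1 (log2 change -0.61 with SE 0.11 and adjusted p 0.00747). MARS2 (ENSG00000247626, chromosome 2), for methionine, held 36.8, 32.4 and 32.3 CPM in shCONTROL and 26.8, 24.0 and 24.7 in shBCLAF1 (log2 change -0.43 with SE 0.08 and adjusted p 0.00844). PARS2 and MARS2 were lower in every shBCLAF1 library than in any shCONTROL library.

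The remaining changes among mitochondrial members were small. IARS2 fell by 0.18 on the log2 scale (adjusted p 0.0126 by the edgeR test), which was lost without shCONTROL replicate 1 (0.0666) or 3 (0.0587). TARS2 and HARS2 were higher, with log2 fold changes of 0.22 and 0.25 (adjusted p 0.0141 and 0.0195). TARS2 lost its call without shCONTROL replicate 3 (0.0539) or shBCLAF1 replicate 1 (0.0520), and HARS2 without shCONTROL replicate 1 (0.0611) or 3 (0.0653) or shBCLAF1 replicate 2 (0.0685). The count of mitochondrial members that fell was thus 3 without shCONTROL replicate 1 or 3, and the count that rose was 0 without shCONTROL replicate 3. RARS2, for arginine, was not called (-0.16, adjusted p 0.376) but passed as lower without shBCLAF1 replicate 2 (0.0173). EARS2, SARS2, CARS2, FARS2, YARS2 and AARS2, which did not pass, lay between -0.21 (EARS2) and 0.16 (AARS2) on the log2 scale.

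VARS2 and LARS2, singled out after their values were seen, varied most within groups. VARS2, for valine, held 21.3, 11.7 and 8.31 CPM in shCONTROL, 25.5, 10.6 and 4.91 in shBCLAF1 and 17.6, 6.01 and 1.80 in the RIP. Replicate 1 was its highest library in all 3 groups. LARS2, for leucine, held 39.4, 9.62 and 8.54 CPM in shCONTROL, 27.2, 11.6 and 35.2 in shBCLAF1 and 32.4, 13.5 and 30.1 in the RIP. With 1 library left out its knock-down log2 fold change ran from 0.011 to 1.45, the highest being without shCONTROL replicate 1, and that of VARS2 from -0.82 to 0.46. No direction is read for either gene.

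For 14 amino acids 1 cytosolic and 1 mitochondrial gene were paired, with TARS3 left out for threonine. The cytosolic gene had the lower knock-down log2 fold change in 12 of these pairs. The median difference (cytosolic minus mitochondrial) was -0.50. It was widest for alanine, with -0.98 for AARS1 and 0.16 for AARS2, whose groups overlapped. Tyrosine followed among pairs with even replicates, with -0.97 for YARS1 and -0.01 for YARS2. In the tryptophan pair both genes fell, by 1.18 (WARS1) and 0.95 (WARS2) on the log2 scale. In the asparagine and arginine pairs the order was the opposite, though that of asparagine turned without shBCLAF1 replicate 1. The count was 11 without shCONTROL replicate 2 or shBCLAF1 replicate 1. With the leucine and valine pairs set aside, since LARS2 and VARS2 give no direction, it was 10 of 12 pairs, and 9 without shCONTROL replicate 2. These differences between genes are descriptions and were not tested.

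**Figure D4:**
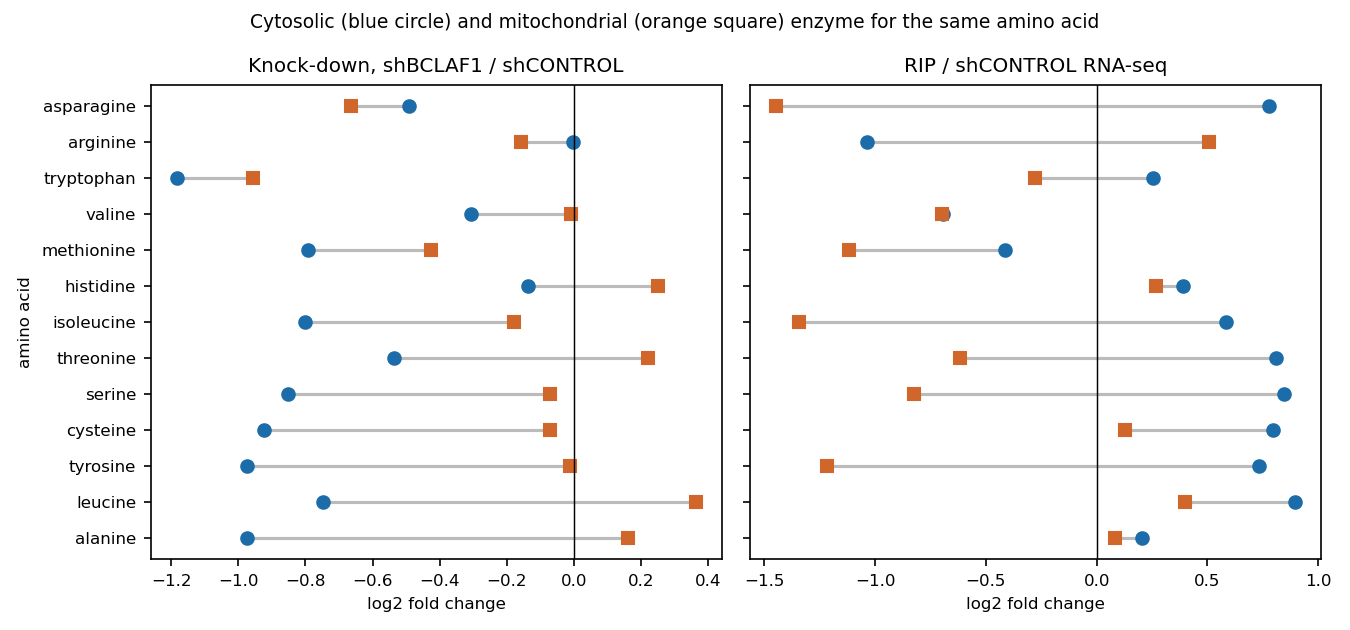
Log2 fold changes of the cytosolic (circle) and mitochondrial (square) gene for the same amino acid, after knock-down (left) and in the RIP (right), 13 pairs ordered by their knock-down difference. The circle lies left of the square in 11 of the pairs shown after knock-down and right of it in 12 in the RIP; both panels share the shCONTROL libraries.

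Other genes of tRNA charging were taken from lists written out for this purpose with earlier results known. All 12 genes of the ATF4 pathway list fell, against 16.9% of all genes tested. Their log2 changes had a median of -1.72, with values from -3.77 to -0.36. The CPM of ATF4 itself (SD, n = 3 a group) was 559.8 ± 13.9 with the control hairpin and 286 ± 15.3 with the other (log2 change -0.97 with SE 0.05 and adjusted p 1.64e-04). ASNS, the enzyme that makes asparagine, fell by 2.05 on the log2 scale (adjusted p 2.57e-04 by the edgeR test), more than any synthetase gene. EIF2AK4 had a log2 fold change of -0.07 (adjusted p 0.493) and did not pass.

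Of the 3 scaffold proteins of the multisynthetase complex, EEF1E1 (-0.44, adjusted p 0.0374) and AIMP2 (-0.22, 0.0462) fell, and AIMP1 did not pass (-0.08, 0.210). The AIMP2 call was lost without any 1 library but shCONTROL replicate 2 (adjusted p 0.0755 to 0.162), and that of EEF1E1 without shCONTROL replicate 1, 2 or 3 or shBCLAF1 replicate 2 (0.0630 to 0.112). Of the 10 genes of tRNA maturation and export 6 fell, against 16.9% of all genes tested, and the others did not pass. With 1 library left out 3 to 5 fell, the fewest without shBCLAF1 replicate 2, where TRNT1 (0.110), ELAC1 (0.0736) and TSEN15 (0.0522) lost their calls. TRNT1 also lost its call without shCONTROL replicate 1, 2 or 3 or shBCLAF1 replicate 3 (0.0826 to 0.105), and ELAC1 without shCONTROL replicate 1 or 3 or shBCLAF1 replicate 1 or 3 (0.0648 to 0.0859). Among those that fell, XPOT, the exportin of tRNA, had a log2 fold change of -0.55 (adjusted p 4.68e-04) and SSB, the La protein that binds new tRNA transcripts, -0.60 (4.52e-04). The proofreading genes DTD1 (-0.45, 0.00330) and DTD2 (-0.46, 0.0124) fell, and AARSD1 did not pass (-0.77, 0.110). DTD2 lost its call without shCONTROL replicate 3 (0.0553), and AARSD1 passed as lower without shBCLAF1 replicate 3 (-1.12, 0.0286). The 4 genes of mitochondrial tRNA amidation and formylation (QRSL1, GATB, GATC, MTFMT) had adjusted p-values of 0.0642 to 0.868, with log2 changes of -0.50 to 0.15. GATC passed as lower without shBCLAF1 replicate 2 (-0.72, 0.0477). For selenocysteine tRNA synthesis PSTK had a log2 change of 0.26 (adjusted p 0.467). SEPSECS was listed at 0 in shBCLAF1 replicate 1, with 17.1 and 15.5 CPM in the other shBCLAF1 libraries and 21.1, 22.5 and 25.2 CPM in shCONTROL. Its log2 change was -1.08 (adjusted p 0.570) with that library and -0.50 (0.0256) without it.

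In RNA precipitated with BCLAF1, the cytosolic members stood on both sides of their RNA-seq level and the mitochondrial members were lower or not called. Of the 20 cytosolic members 9 passed as higher and 6 as lower than shCONTROL RNA-seq (adjusted p under 0.05), and the median log2 change was 0.32. Of the 17 mitochondrial members 0 were higher and 8 lower, with a median of -0.62. At an unadjusted p under 0.05 by edgeR 1 mitochondrial member, RARS2, was higher, and DESeq2 called it. Over the 16727 genes tested, 24.6% were higher and 24.7% lower, with a median of -0.049. Where the change also had to reach 1 on the log2 scale, KARS1 alone was enriched, against 11.0% of all genes, and 6 members were depleted, against 13.5%. What a precipitation without the antibody would recover was not analysed here.

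Cytosolic members held 0.613% ± 0.0639 of all counts in the RIP and mitochondrial members 0.0569% ± 0.00561 (SD, n = 3 each). Scaling by total counts in place of TMM moved the median of all genes in the RIP from -0.049 to -0.16. It left 8 cytosolic members higher and 6 lower, with a median of 0.20, and 10 mitochondrial members lower, with a median of -0.74.

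KARS1 stood highest. It held 316, 312 and 539 CPM in the 3 RIP libraries, all above its 182, 169.7 and 181 in shCONTROL, with RIP replicate 3 well above the other two (log2 change 1.14 with SE 0.23 and adjusted p 0.00796). Without RIP replicate 3 its log2 fold change was 0.83 (adjusted p 0.00120), under the minimum of 1. KARS1P1, a pseudogene of KARS1 and the only 1 of 13 member pseudogenes above 3 counts in any library, held at most 60 counts in a library.

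LARS1 held 665, 707 and 877 CPM in the RIP, above every shCONTROL library (log2 change 0.90 with SE 0.13 and adjusted p 0.00245). SARS1 held 136, 183 and 181 CPM in the RIP, again with no overlap with shCONTROL (log2 change 0.84 with SE 0.14 and adjusted p 0.00377). The other cytosolic members that were higher lay between 0.39 (HARS1) and 0.81 (TARS1) on the log2 scale, and they were CARS1, IARS1, NARS1 and YARS1 besides these 2. IARS1 was not called without shCONTROL replicate 1 (0.0597) or 3 (0.0565), and HARS1 was not called without shCONTROL replicate 1, 2 or 3 (0.0715, 0.0904 and 0.0720), each value an adjusted p.

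GARS1 was lower in the RIP. It held 239, 188 and 209 CPM in the RIP, all under its shCONTROL libraries (log2 change -0.93 with SE 0.12 and adjusted p 0.00170). EPRS1 held 281, 404 and 369 CPM in the RIP, also under every shCONTROL library (log2 change -0.87 with SE 0.15 and adjusted p 0.00464). RARS1 was lowest of the cytosolic members, at -1.04 (adjusted p 0.00301), and it was the only one depleted by at least 1. Over 12 alternative fits its log2 change ran from -1.19 to -0.89, so the minimum of 1 was not always reached. MARS1 (-0.42), VARS1 (-0.69) and FARSB (-0.39) were lower as well. VARS1 did not pass once shCONTROL replicate 1, 2 or 3 was dropped (adjusted p 0.0755, 0.0529 and 0.0732). FARSB lost its call without shCONTROL replicate 1, 2 or 3 (0.112, 0.0801 and 0.101) or RIP replicate 1 (0.0510). Without any 1 shCONTROL library, 4 cytosolic members were lower.

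AARS1 held 357, 574 and 333 CPM in the RIP, with replicate 2 high and the other two near the shCONTROL level (log2 change 0.20 with SE 0.23 and adjusted p 0.485), and leaving out RIP replicate 2 gave a log2 change of -0.092. QARS1 held 216, 368 and 302 CPM in the RIP, and replicate 1 lay within the shCONTROL range (log2 change 0.48 with SE 0.20 and adjusted p 0.0931). Without RIP replicate 1 QARS1 passed as higher, with 0.66 (adjusted p 0.00780), and without RIP replicate 2 its log2 change was 0.28 (adjusted p 0.189). WARS1 (0.25) and FARSA (-0.055) were not called. TARS3 held 11.0, 8.51 and 7.50 CPM in the RIP and was not called (log2 change 0.35 with SE 0.18 and adjusted p 0.149; 0.19 without RIP replicate 1).

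**Figure D5:**
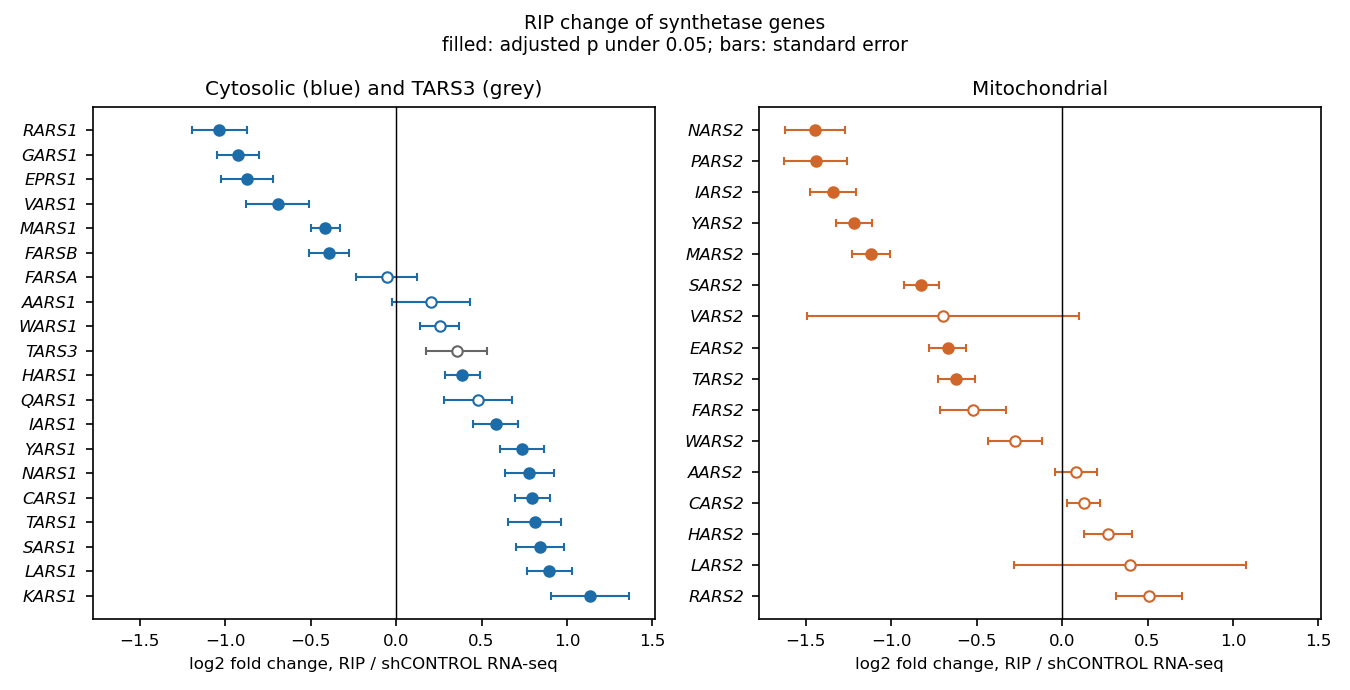
Log2 fold change of the RIP over shCONTROL RNA-seq for members with the standard error; filled points have an adjusted p under 0.05. Cytosolic genes range from -1.04 to 1.14, and all 8 filled mitochondrial points lie below 0.

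The mitochondrial members with the lowest RIP values were NARS2, PARS2 and IARS2. NARS2 held 8.90, 6.19 and 9.22 CPM in the RIP (log2 change -1.45 with SE 0.17 and adjusted p 0.00124) and PARS2 2.37, 2.74 and 3.38 (log2 change -1.44 with SE 0.18 and adjusted p 0.00149). IARS2 (ENSG00000067704, chromosome 1) held 169.9, 161 and 163 CPM in shCONTROL and 54.0, 64.5 and 75.3 in the RIP (log2 change -1.34 with SE 0.13 and adjusted p 6.64e-04). In these 3 genes every RIP library was under every shCONTROL library. YARS2 (-1.22) and MARS2 (-1.12) were also lower by more than 1, and SARS2 (-0.82), EARS2 (-0.67) and TARS2 (-0.62) by less. CARS2, HARS2 and AARS2 were not called, with 0.13, 0.27 and 0.082. FARS2 and WARS2 were not called either (-0.52 and -0.28) but passed as lower without RIP replicate 3 (adjusted p 0.0205 and 0.0253). RARS2 (0.51, adjusted p 0.0725) passed as higher without RIP replicate 2 (0.70, 0.00134), and LARS2 without shCONTROL replicate 1 (1.48, 0.0435).

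In the 14 pairs for 1 amino acid, the cytosolic gene had the higher RIP log2 fold change in 13, with a median difference of 0.69. The count was 11 without shCONTROL replicate 1, RIP replicate 2 or RIP replicate 3. With the leucine and valine pairs set aside it was 11 of 12, and 10 without RIP replicate 2 (alanine turned) or 3 (histidine turned). The widest difference was that of asparagine, with 0.78 for NARS1 and -1.45 for NARS2. The exception was arginine, with -1.04 for RARS1 and 0.51 for RARS2. In the valine pair both were near -0.69, and their order turned without shCONTROL replicate 1, RIP replicate 2 or RIP replicate 3 and with total counts.

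The lists of related genes also split in the RIP. Of the scaffold proteins AIMP1 was higher (0.40, adjusted p 0.00454) and AIMP2 (-1.40, 6.05e-04) and EEF1E1 (-0.64, 0.00233) were lower by the edgeR test. Of the 12 ATF4 pathway genes 3 were higher (ATF4, DDIT3, PPP1R15A) and 6 lower. DDIT4 lost its call as lower without shCONTROL replicate 2 (0.0517) and ATF5 gained one without RIP replicate 2 (0.0128), and EIF2AK4 was higher at 1.65 (adjusted p 4.81e-04). Of the tRNA maturation and export genes TSEN15 (-2.10), XPOT (-0.68) and ELAC2 (-0.62) were lower. TARS1-DT, the noncoding transcript beside TARS1, was lower after knock-down (-0.59, adjusted p 0.0495) and higher in the RIP (1.02, 0.00376). Its knock-down call was lost without any 1 library but shBCLAF1 replicate 1 (adjusted p 0.0807 to 0.137).

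Both comparisons use the same shCONTROL libraries, so the calls of a gene in both are not independent and are only set side by side. Among cytosolic members 7 were lower after knock-down and higher in the RIP (CARS1, IARS1, LARS1, NARS1, SARS1, TARS1, YARS1), as were 4.89% of the 16386 genes tested in both. Another 5 were lower in both (EPRS1, FARSB, GARS1, MARS1, VARS1), as were 6.05% of all genes, and 3, AARS1 and WARS1 among them, were lower after knock-down with no RIP call, as were 6.51% of all genes. Among mitochondrial members 4 were lower in both (IARS2, MARS2, NARS2, PARS2) and 7 were called in neither, as were 37.9% of all genes.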

How the data were processed

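RNA was measured in 9 libraries of MOLM-13 cells. Values are the authors' estimated counts for each gene, deposited in a single table without normalization, all of them whole numbers, so none was rounded. STAR 2.7.11b, StringTie 2.2.3 and hg38 are named in the submitters' processing notes, while annotation and counting options are not given in the sources used here. A single entry that names no gene (0% to 3.75% of a library) was left out. A few genes' own values are not reported here or plotted, but they stay in the counts.

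The 38 members, gene lists and naming rule were chosen with earlier results of these data known. Values in every library are given for the 8 cytosolic and 4 mitochondrial members with the largest knock-down change in size, the 3 highest and 3 lowest in the RIP, and EPRS1, GARS1, KARS1, QARS1 and TARS3. Each comparison (shBCLAF1 or RIP against shCONTROL) was fitted on its own 6 libraries with edgeR 4.0.16 in R 4.3.3: default filter on low counts, TMM, a prior count of 2, group as the only term, quasi-likelihood F-test, Benjamini-Hochberg over all genes and a threshold of 0.05. The fits were tested on simulated data. SE is the log2 fold change over the root of F. Alternatives were DESeq2 1.42.0, other scalings, no filter, all 9 libraries, a replicate block, a minimum change and leaving out each library. Motifs were searched in all promoters RefSeq lists for a gene; counting 1 promoter a gene, and each form of the element apart, pairs without LARS and VARS, and leaving out libraries for the lists were added after the data were seen. Totals count PCR copies as reads, so floors cover counting error only.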

Additional observations from a re-analysis of the deposited data

How the results depend on the processing

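Over 12 alternatives a member, 22 of 38 members kept direction and side of the threshold after knock-down and 25 of 38 in the RIP. The count of cytosolic members lower after knock-down was 12 (all 9 libraries in 1 fit) to 16, and 11 at a minimum log2 change of 0.5. That fit, whose spread includes the RIP libraries, gave 0 cytosolic and 0 mitochondrial members higher and 3 mitochondrial members lower, and called 1129 genes higher and 1318 lower where the fit of 6 libraries called 2625 and 2859. The minimum of 0.5 gave 0, 0 and 3. Without the filter on low counts 1 cytosolic member was higher. With 1 library left out, cytosolic members higher numbered 1 in each fit, mitochondrial members higher 0 to 2 and mitochondrial members lower 3 to 5. In the RIP a minimum of 1 left 1 cytosolic member higher, 1 lower and 5 mitochondrial members lower. DESeq2 called 1 mitochondrial member higher, and fits without 1 library 0 to 1. Before the transcript start alone, 3 cytosolic promoters held the ATF4 and C/EBP element. Directions that turned belonged to uncalled genes. Total counts turned the knock-down values of RARS1 (0.050), FARS2 (0.020), VARS2 (0.031) and YARS2 (0.039) and the RIP value of AARS2 (-0.037). With 1 library left out, knock-down values ran from -0.026 to 0.028 (RARS1), -0.085 to 0.077 (FARS2), -0.82 to 0.46 (VARS2) and -0.059 to 0.013 (YARS2), and RIP values from -0.092 to 0.35 (AARS1), -0.26 to 0.0705 (FARSA) and -0.019 to 0.17 (AARS2). The cause was not tested. Same-numbered libraries did not deviate together (correlations of -0.038 to 0.056, and not every library was closest to its own number). The replicate block called 2271 genes higher and 2538 lower after knock-down, with 15 cytosolic and 4 mitochondrial members lower (NARS2 lost its call; in the RIP FARSB and VARS1 lost and FARS2 gained one) and a mitochondrial median of -0.17. An order of levels between genes was not run, since no transcript or coding length was at hand. The lowest single counts were those of VARS2 and PARS2 in the RIP, and TARS3 had the lowest mean CPM in shCONTROL.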
